A study of Mus musculus with 15 samples.

Results

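The histone genes of 4T1 mammary carcinoma cells were followed through 4 deposited comparisons of RNA-seq data. Members were all genes whose symbol begins with Hist1h to Hist4h, H2af, H3f3 or H1f in any of the 4 limma tables, and there were 38 of them among the 14583 genes in those tables. Of these, 27 were clustered genes (symbols beginning with Hist) and 11 were variant genes (H2af, H3f3 and H1f symbols). The tables hold 1 fold change and 1 p-value per gene and no level in any sample, so a value below is the difference between groups of 3 samples and carries no replicate error of its own.

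4T1 is a mouse mammary carcinoma line that metastasizes to the lung. In 2D culture with 2% FBS, Padi4 KO cells received vehicle or the products of dying cells at 5000 donor cells to 500 recipients. The donors carried iCasp9, a caspase that the drug AP1903 switches on. Padi4 WT donors gave nuclear expulsion products (NEPs, called exsporosi in the labels), which are chromatin and bound proteins thrown out by dying cells, and Padi4 KO donors gave apoptotic debris (apoDBs). The spheroids were Padi4 WT or Padi4 KO cells grown for 3 days in ultralow attachment plates and for 7 more days in 75% Matrigel. All 5 groups held 3 samples, 15 in all, and all 2D recipients were Padi4 KO, a genotype taken from the study's methods. The KO cells came from a Cas9 plasmid and puromycin selection, the study describes its 4T1 KO lines as clones, and which clone or clones were sequenced is not given in the sources used here. The study speaks of repeated biological experiments in general, but the sources used here do not say whether the 3 RNA samples of a group were separate cultures, so the p-values may measure technical spread. RNA of donor cells carried into the 2D cultures and RNA of the recipients cannot be told apart.

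Padi4, the arginine deiminase that citrullinates histones, was higher in WT than in KO spheroids by a log2 fold change of 2.06 (adjusted p = 0.000542). In 2D culture its log2 fold change was 0.15 with NEPs against vehicle (adjusted p = 0.109), -0.84 with apoDBs against vehicle (adjusted p = 0.000324) and 1.01 with NEPs against apoDBs (adjusted p = 1.19e-06). Of 10 epithelial and mammary carcinoma markers, 9 were listed in all 4 tables, whereas 3 of 8 fibroblast markers and 4 of 10 leukocyte markers were listed in any. In spheroids 7 of the 9 epithelial markers were lower in WT and 2 higher, where 26.1% of all genes were lower and 21.7% higher. With NEPs 7 of the 9 were lower than vehicle, where 31.1% of all genes were, and with apoDBs 4 were higher and 1 lower, where 22.9% and 22.6% of all genes were. In NEPs against apoDBs 7 were lower and 1 higher, where 31.4% and 23.4% of all genes were.

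Of the leukocyte markers, S100a8 was at 3.06 with NEPs against vehicle (adjusted p = 5.9e-05) and 1.72 with apoDBs (adjusted p = 0.00661), and S100a9 at 1.58 (adjusted p = 0.00165) and 1.70 (adjusted p = 0.00179). Cd68 was at 1.71 in spheroids (adjusted p = 0.00303), 1.06 with NEPs (adjusted p = 0.000164) and 0.31 with apoDBs (adjusted p = 0.134), and Csf1r at -3.01 (adjusted p = 0.109), -1.14 (adjusted p = 7.03e-05) and -0.25 (adjusted p = 0.0972). In NEPs against apoDBs S100a8 and Cd68 were higher, at 1.46 (adjusted p = 2.71e-05) and 0.76 (adjusted p = 0.000642), Csf1r was lower at -0.91 (adjusted p = 0.000123) and S100a9 was at 0.0079 (adjusted p = 0.979). Ptprc, the defining leukocyte marker, was in none of the tables. Of the fibroblast markers, Pdgfrb was at 4.56 (adjusted p = 0.000456) and Col1a1 at -4.19 (adjusted p = 0.000186) in spheroids, the 1 comparison that listed them. Pdgfra was at -0.0088 in spheroids (adjusted p = 0.964), -0.19 with NEPs (adjusted p = 0.175), -0.38 with apoDBs (adjusted p = 0.0225) and 0.19 in NEPs against apoDBs (adjusted p = 0.0353). These shifts run beside the histone values below, and their part in them was not tested.

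Histones wrap DNA into nucleosomes. Clustered, or replication-dependent, histone genes lie together on a few chromosomes, are transcribed mainly in S phase and supply the bulk of H1, H2A, H2B, H3 and H4 for new chromatin. Their mRNAs classically end just after a conserved 3′ stem-loop, which the stem-loop binding protein Slbp holds, in place of a poly(A) tail. Variant genes lie alone, are mostly made throughout the cell cycle, carry introns in several cases and mostly give ordinary polyadenylated mRNAs. H2afx is a variant gene that also carries the stem-loop. A library made from poly(A) RNA and a library made from total RNA therefore count the classes differently. Which kind of library was made here is not given in the sources used here, beyond a label naming total RNA as the extracted molecule.

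The 19 listed clustered genes of the Hist1 cluster lie on chr13 between positions 21722044 and 23747241, 7 of the Hist2 cluster on chr3 between 96221119 and 96270132, and Hist3h2a on chr11 at 58954685 to 58956830 (GENCODE M21, GRCm38, matched by Ensembl identifier). GENCODE annotates 70 clustered genes, of which 27 were in any table. By family, 3 of 6 annotated H1 genes, 5 of 20 H2A, 10 of 19 H2B, 3 of 12 H3 and 6 of 13 H4 genes were listed. Of the variants, 8 of the 11 listed genes are annotated as protein-coding.

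The stem-loop, 16 bases forming a stem of 6 base pairs and a loop of 4 bases, is the element that sets clustered histone mRNAs apart, and it is shown in capitals for 6 genes with 5 bases on each side. The first 3 are the H2B genes with the largest rise in co-culture, the next pair are an H1 and an H4 gene called in all 4 comparisons, and H2afx is the variant gene that also carries the element. They come from GENCODE M21 transcripts (GRCm38) and lie past the stop codon. In Hist1h1d, Hist1h4i and H2afx the annotated transcript runs on for 4884, 330 and 822 bases after the element.
Hist1h2bb (chr13:23747198-23747223, + strand): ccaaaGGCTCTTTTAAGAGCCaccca
Hist1h2bf (chr13:23573760-23573785, - strand): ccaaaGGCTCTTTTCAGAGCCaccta
Hist1h2bm (chr13:21722501-21722526, + strand): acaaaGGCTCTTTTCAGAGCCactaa
Hist1h1d (chr13:23555782-23555807, + strand): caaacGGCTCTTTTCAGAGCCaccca
Hist1h4i (chr13:22040961-22040986, - strand): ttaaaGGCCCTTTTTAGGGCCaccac
H2afx (chr9:44335235-44335260, + strand): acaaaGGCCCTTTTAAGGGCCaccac

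An element of this kind was found in 22 of the 27 listed clustered genes, in 22 of the 40 protein-coding clustered genes that no table listed and in 65 of all 21901 protein-coding genes (0.297%). The counts of clustered genes took a match past the stop codon, and the count of all genes a match anywhere in the transcript. Some annotated transcripts, such as those of Hist1h4k (312 bases, not listed) and Hist2h2bb (381 bases, listed), hold little beyond coding sequence, so the element could not be found there. Hist1h2bc, Hist1h2bq, Hist1h2br, Hist2h2bb and Hist2h2be were listed without it in their annotated transcripts. Annotated transcripts of the listed clustered genes had a median length of 1138 bases, against 478 bases in those not listed. In 15 of the 22 listed genes with the element the transcript ran 100 bases or more past it, and in 7 it ended within 100 bases. Among the genes not listed these counts were 7 and 15.

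The promoters of the H2B genes that rose most in co-culture are shown for the elements known from histone promoters, of which each gene held some. The 120 bases before the RefSeq start site (GRCm38.p6) are given for the 4 with the largest log2 fold change with NEPs, with capitals marking 3 motifs searched on either strand. The TATA box was searched as TATAAA. The motif bound by NF-Y was searched as CCAAT. The octamer bound by Oct1 was searched as ATTTGCAT. No motif overlaps another in the stretches shown.
Hist1h2bf (chr13:23574208-23574327, - strand): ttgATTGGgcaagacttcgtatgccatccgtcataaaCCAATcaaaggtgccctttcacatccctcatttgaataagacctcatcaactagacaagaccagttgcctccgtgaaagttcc
Hist1h2bm (chr13:21721924-21722043, + strand): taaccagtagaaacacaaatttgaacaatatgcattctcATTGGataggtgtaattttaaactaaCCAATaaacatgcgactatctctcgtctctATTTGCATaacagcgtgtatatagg
Hist1h2bb (chr13:23746614-23746733, + strand): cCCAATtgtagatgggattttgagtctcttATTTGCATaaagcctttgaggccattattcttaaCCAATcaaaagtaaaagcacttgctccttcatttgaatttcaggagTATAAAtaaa
Hist1h2bg (chr13:23571280-23571399, + strand): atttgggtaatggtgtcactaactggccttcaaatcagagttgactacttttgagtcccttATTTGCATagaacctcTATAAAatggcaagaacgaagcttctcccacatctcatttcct

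Promoters of 24 clustered members matched by symbol. In the 250 bases before the start, 19 of the 24 held a CCAAT box (79.2%), 10 a TATA box (41.7%) and 6 the octamer (25%), against 34.5%, 13% and 1.61% of all 27025 RefSeq promoters. All 8 matched clustered H2B genes held a CCAAT box and 4 held the octamer. Of 8 matched variant genes, 5 held a CCAAT box, 1 a TATA box and 1 the octamer. A match is a description of the letters in this window.

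The comparison of Padi4 WT with Padi4 KO spheroids asks how the cells differ in 3D growth when nuclear expulsion is possible. Clustered histone genes were lower in WT spheroids: 13 of the 20 listed fell, none rose and 7 did not pass the test, and 19 of the 20 log2 fold changes were negative. Their median log2 fold change was -1.79, a 3.45-fold lower level, while the median of all 14053 genes was -0.08. Among all genes in this comparison, 26.1% were called lower and 21.7% higher at an adjusted p below 0.05. S phase genes went the other way, with all 28 of a fixed list higher in WT spheroids at a median log2 fold change of 2.06.

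**Figure D1:**
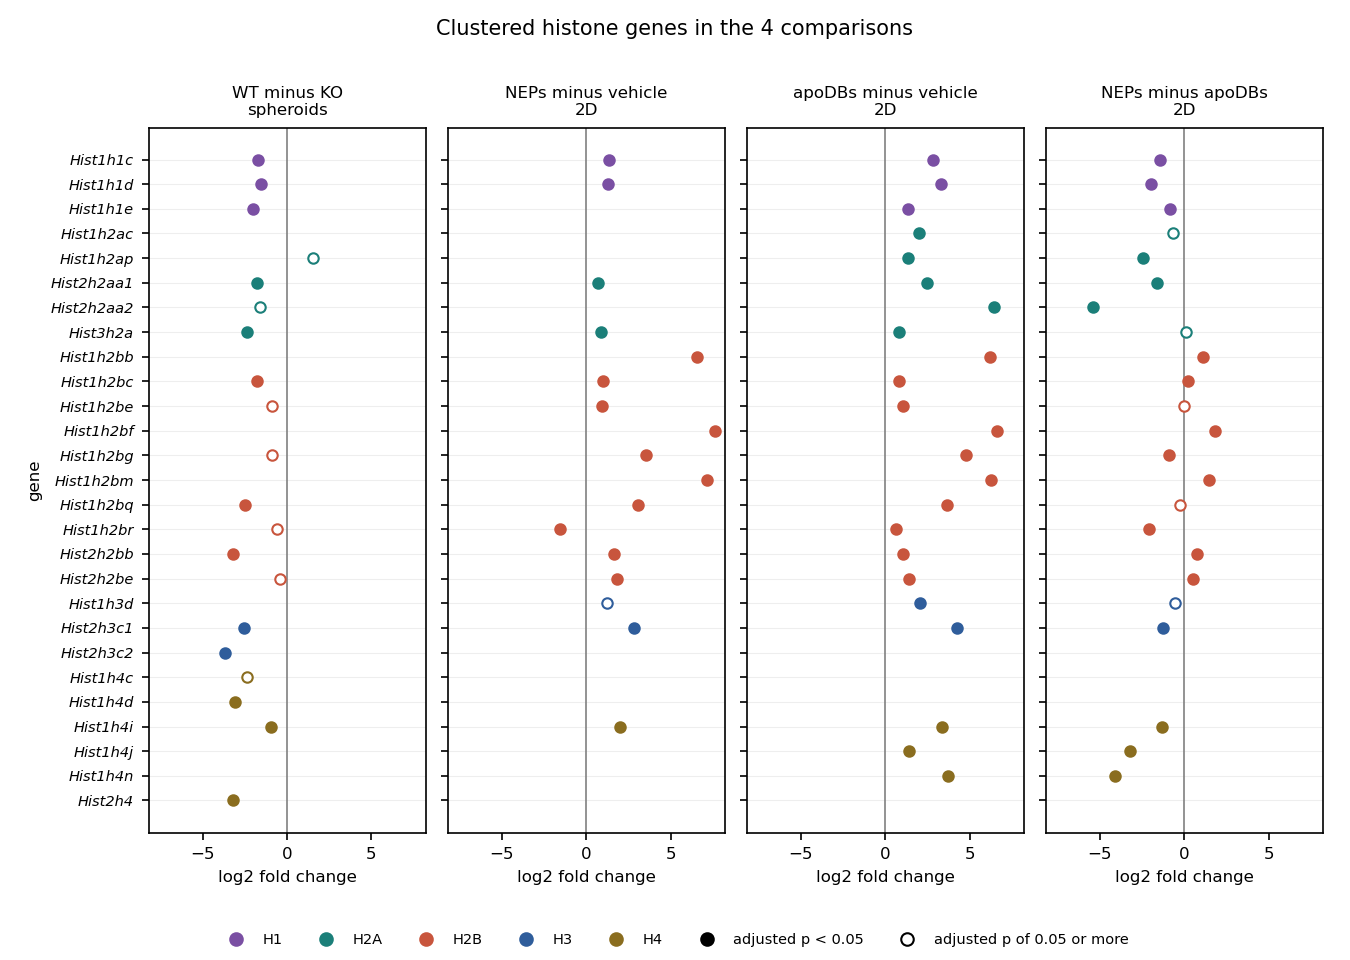
Log2 fold changes of the 27 clustered histone genes (rows, coloured by histone family) in the 4 comparisons (panels), with filled points at an adjusted p below 0.05 and no point where a table did not list the gene. In WT against KO spheroids 19 of 20 points lie below 0, and with apoDBs against vehicle all 23 lie above 0.

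Among the core histones of the nucleosome, the H3 gene Hist2h3c2 had the largest change in spheroids at -3.69 on the log2 scale (adjusted p = 0.00763). It was followed by the H2B gene Hist2h2bb at -3.19 (adjusted p = 0.00184), the H4 gene Hist2h4 at -3.18 (adjusted p = 0.000141) and the H4 gene Hist1h4d at -3.07 (adjusted p = 0.0168). Hist2h3c1, which encodes H3, was lower by -2.52 (adjusted p = 0.0158), and Hist1h2bq, which encodes H2B, by -2.49 (adjusted p = 0.0126). These 6 genes were 5.61-fold to 12.9-fold lower in WT spheroids. Hist2h2bb, Hist2h3c1, Hist2h3c2 and Hist2h4 belong to the Hist2 cluster on chr3. Hist2h3c2, Hist2h4, Hist1h4d and Hist1h4c were listed in spheroids and in no 2D comparison. They may have entered through the KO samples alone, where they are higher. Among the 13 clustered genes listed in all 4 comparisons, 9 were lower in WT spheroids and none higher, at a median of -1.69.

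The H2A gene Hist3h2a was lower by -2.38 with the smallest adjusted p of the clustered genes in spheroids (1.99e-05). It was also the 1 clustered gene here that passed stricter limits, an adjusted p below 0.0001 with a change beyond 2 on the log2 scale, which 4.05% of all genes did. The linker histone genes, whose H1 proteins bind DNA between nucleosomes, fell together, with Hist1h1e at -2.03 (adjusted p = 0.0225), Hist1h1c at -1.69 (adjusted p = 0.00109) and Hist1h1d at -1.54 (adjusted p = 0.0175). Hist1h2bc was lower by -1.80 (adjusted p = 0.000278), Hist2h2aa1 by -1.77 (adjusted p = 0.00581) and Hist1h4i by -0.95 (adjusted p = 0.0336).

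Of the 7 genes that did not pass, Hist1h4c, Hist2h2aa2, Hist1h2be, Hist1h2bg, Hist1h2br and Hist2h2be had log2 fold changes between -2.38 and -0.44. Hist1h2ap, an H2A gene, was the exception in sign at 1.56 (adjusted p = 0.27). Its coding sequence is identical to that of Hist1h2ao, which no table listed, so its reads could have been split between copies.

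Variant genes in spheroids went in both directions. Of the 11, 4 rose (36.4%, beside 21.7% of all genes), 1 fell (9.09%, beside 26.1%) and 6 did not pass. Their median log2 fold change was 0.0054. H2afz, which encodes H2A.Z of promoters and enhancers, was higher in WT spheroids at 2.34 (adjusted p = 1.42e-05), and passed the same stricter limits. H2afx, whose protein is phosphorylated at DNA breaks, was higher at 2.10 (adjusted p = 0.000753), and H2afv, which encodes the second H2A.Z protein, at 1.47 (adjusted p = 0.00043). H2afy, the gene of macroH2A1, was higher at 0.50 (adjusted p = 0.0312).

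The H3.3 genes H3f3a and H3f3b, which encode the same replication-independent H3 protein, had log2 fold changes of -0.25 (adjusted p = 0.261) and -0.09 (adjusted p = 0.48) in spheroids. H3f3aos, antisense to H3f3a and overlapping its exons, was lower at -0.88 (adjusted p = 0.0128). Whether the counting used strand is not given in the sources used here, so reads of H3f3a and H3f3aos cannot be told apart. H3f3c, annotated as a processed pseudogene of an H3.3 gene, was at -1.45 (adjusted p = 0.13), H2afj at -0.72 (adjusted p = 0.0545) and H1f0, the linker histone of resting cells, at 0.0054 (adjusted p = 0.978). The pseudogene H3f3a-ps2 did not pass in any comparison.

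**Figure D2:**
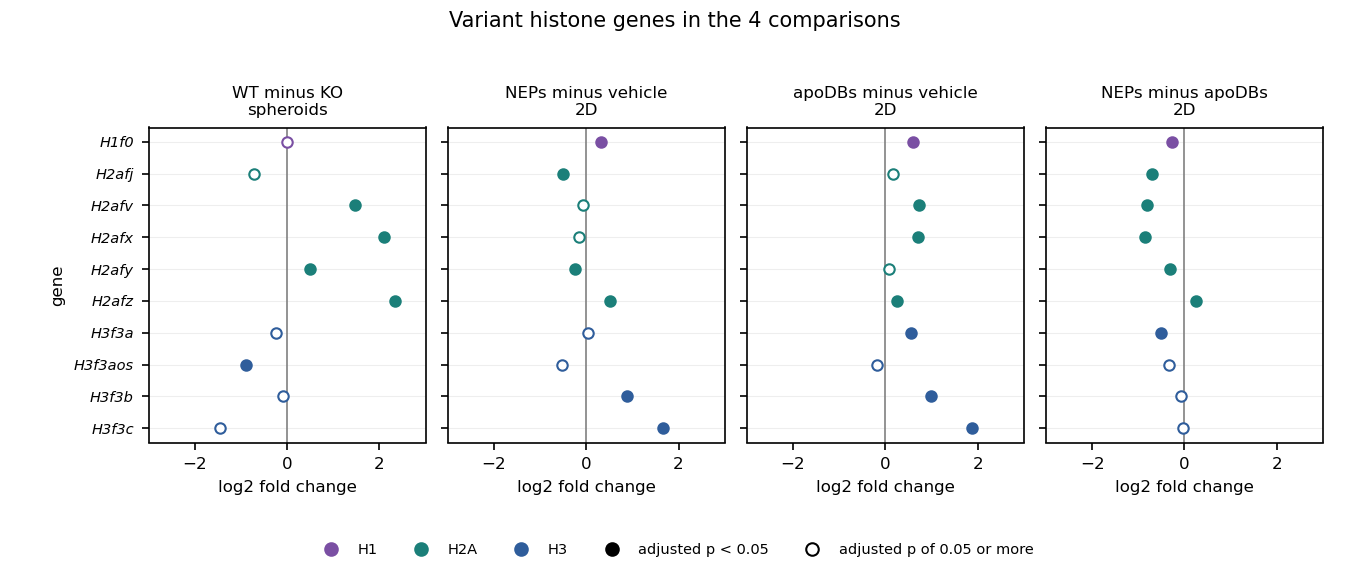
Log2 fold changes of 10 variant histone genes (rows; the pseudogene H3f3a-ps2 is left out) in the 4 comparisons (panels), with filled points at an adjusted p below 0.05. H2afz, H2afx and H2afv stand at 2.34, 2.10 and 1.47 in spheroids, while H3f3b stands at 0.89 and 0.99 in the comparisons with vehicle.

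Of 28 histone chaperones and deposition factors, 10 were higher in WT spheroids (35.7%, beside 21.7% of all genes) and 3 lower (10.7%, beside 26.1%). The replication-coupled chaperone genes led, with Chaf1a at 2.56 (adjusted p = 2.49e-05), Asf1b at 2.49 (adjusted p = 2.14e-05) and Chaf1b at 2.28 (adjusted p = 4.01e-05), and Nasp, whose protein holds free H3 and H4, was at 1.04 (adjusted p = 0.00199). Ubn2, of the HIRA complex that deposits H3.3, was lower at -1.37 (adjusted p = 0.0102), while Hira was at -0.05 (adjusted p = 0.749) and Daxx, the H3.3 chaperone at heterochromatin, at -0.09 (adjusted p = 0.731). Cenpa, the centromeric H3 variant outside the symbol rule, was higher at 3.20 (adjusted p = 8.98e-06), and Cenpw at 1.59 (adjusted p = 0.00212).

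Of 16 genes for histone mRNA processing and transcription at histone loci, 5 were higher in WT spheroids (31.2%, beside 21.7% of all genes) and none lower. They included Zfp473 at 1.18 (adjusted p = 0.0308), Slbp at 0.93 (adjusted p = 0.00318), Snrpb at 0.72 (adjusted p = 0.0237) and Srrt at 0.63 (adjusted p = 0.0136). Npat, the coactivator of clustered histone transcription, was at -0.14 (adjusted p = 0.568). The 4 S phase genes with the largest change were Ccna2 at 3.44 (adjusted p = 2.07e-05), Cdc45 at 3.19 (adjusted p = 1.34e-05), Tk1 at 3.16 (adjusted p = 5.69e-05) and Rrm2 at 3.01 (adjusted p = 9.42e-06).

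**Figure D3:**
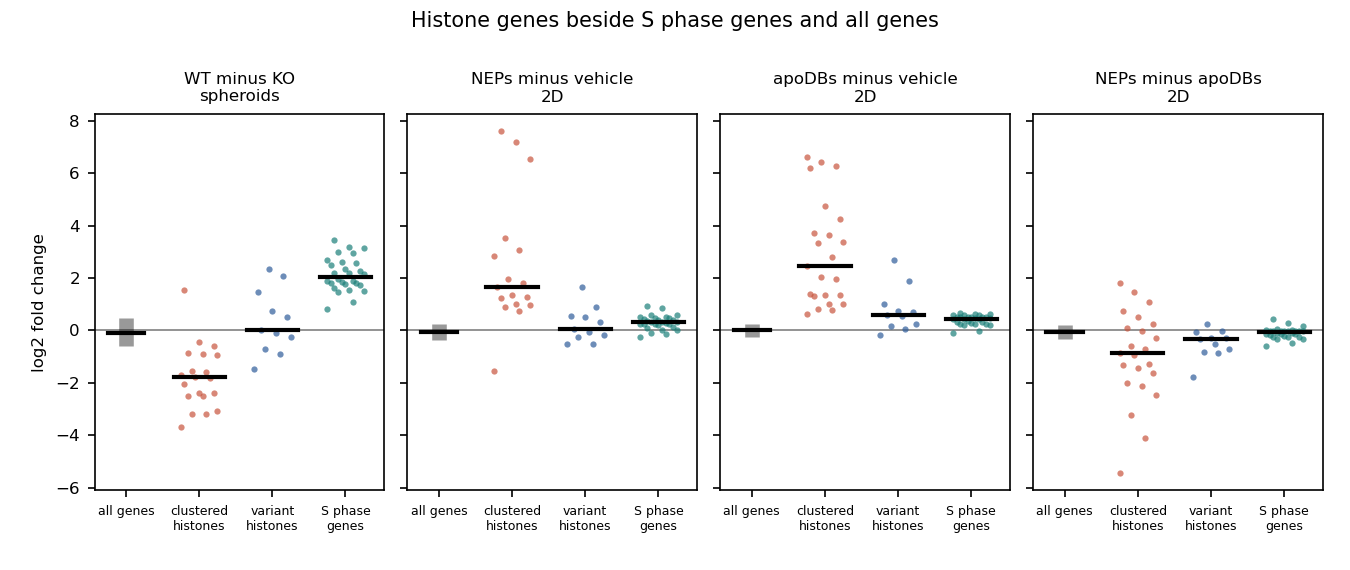
Log2 fold changes by gene group in the 4 comparisons, with each point a gene, the black line a group median and, for all genes, a grey bar from the lower to the upper quartile. In spheroids the clustered histone median lies at -1.79 and the S phase median at 2.06, and in both comparisons with vehicle both medians lie above 0.

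The 2D comparisons with vehicle set recipient cultures given the products of dying cells beside cultures given vehicle. With apoDBs all 23 listed clustered genes rose, where 22.9% of all genes were called higher and 22.6% lower. Their median log2 fold change was 2.44, a 5.43-fold higher level, beside 0.01 for all 13307 genes. With NEPs 15 of the 17 listed clustered genes rose, 1 fell and 1 did not pass, where 24.3% of all genes were called higher and 31.1% lower. The median was 1.66, a 3.16-fold higher level, beside -0.05 for all 13541 genes. Both comparisons share the vehicle samples, so they are not independent. A gene low in vehicle may have been listed through the treated samples alone. Among the 13 clustered genes listed in all 4 tables, 13 rose with apoDBs at a median of 2.44, and 12 rose and 1 fell with NEPs at a median of 1.37.

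With NEPs the 5 largest changes were in H2B genes, and with apoDBs 4 of the 5 largest were, the other being the H2A gene Hist2h2aa2. Hist1h2bf was at 7.61 with NEPs (adjusted p = 6.78e-07) and 6.64 with apoDBs (adjusted p = 0.000364). Hist1h2bm was at 7.18 (adjusted p = 4.11e-07) and 6.28 (adjusted p = 6.71e-05), and Hist1h2bb at 6.56 (adjusted p = 4.52e-06) and 6.20 (adjusted p = 0.000377). As ratios these 3 genes were 94.3-fold to 195-fold higher with NEPs and 73.3-fold to 99.5-fold higher with apoDBs. All 3 were absent from the spheroid table, and the vehicle levels behind the ratios are unknown, so the size of such folds depends on how close vehicle was to 0 and on the offset used before the logarithm.

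Hist1h2bg followed at 3.54 with NEPs (adjusted p = 0.000123) and 4.76 with apoDBs (adjusted p = 0.000129), and Hist1h2bq at 3.07 (adjusted p = 0.0017) and 3.66 (adjusted p = 0.0114). Hist2h2be rose by 1.82 (adjusted p = 3.3e-06) and 1.37 (adjusted p = 0.000356), Hist2h2bb by 1.66 (adjusted p = 0.00144) and 1.03 (adjusted p = 0.0334), Hist1h2bc by 1.01 (adjusted p = 3.78e-05) and 0.80 (adjusted p = 0.000772), and Hist1h2be by 0.96 (adjusted p = 0.00722) and 1.03 (adjusted p = 0.00554). Hist1h2br was the exception, lower with NEPs at -1.54 (adjusted p = 0.0118) and higher with apoDBs at 0.62 (adjusted p = 0.04). The coding sequences of Hist1h2bq and Hist1h2br are identical, so how their shared reads were assigned bears on both values.

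Linker histone genes rose in both. Hist1h1c was at 1.37 with NEPs (adjusted p = 6.32e-06) and 2.80 with apoDBs (adjusted p = 1.56e-05), and Hist1h1d at 1.28 (adjusted p = 0.0026) and 3.33 (adjusted p = 6.67e-05). Hist1h1e, listed with apoDBs and not with NEPs against vehicle, was at 1.35 (adjusted p = 0.0033). Its exon overlaps that of Hist1h2be on the same strand.

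Of the H3 and H4 genes, Hist2h3c1 was at 2.84 with NEPs (adjusted p = 1.98e-05) and 4.26 with apoDBs (adjusted p = 4.07e-05), and Hist1h4i at 1.97 (adjusted p = 1.82e-05) and 3.37 (adjusted p = 8.23e-06). Hist1h4n rose with apoDBs at 3.70 (adjusted p = 0.00192), and has the same coding sequence as Hist1h4m, which no table listed. Hist1h3d was the clustered gene that did not pass with NEPs, at 1.23 (adjusted p = 0.0946), and with apoDBs it was at 2.03 (adjusted p = 0.0233).

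Among H2A genes, Hist2h2aa2 was 86.4-fold higher with apoDBs, at 6.43 on the log2 scale (adjusted p = 0.000648), and its copy Hist2h2aa1 was at 2.44 (adjusted p = 0.00132). With NEPs against vehicle Hist2h2aa2 was not listed and Hist2h2aa1 was at 0.72 (adjusted p = 0.0376). Their coding sequences are identical and GENCODE M21 exchanges the symbols of the 2 identifiers, so the split between them is uncertain. Hist1h2ac, listed with apoDBs and not with NEPs against vehicle, was at 1.97 (adjusted p = 0.00328). Hist3h2a rose by 0.90 with NEPs (adjusted p = 8.84e-05) and 0.82 with apoDBs (adjusted p = 0.000757).

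The stricter limits, an adjusted p below 0.0001 with a change beyond 2 on the log2 scale, were reached with NEPs by 4 clustered genes, where 2.65% of all genes passed, and with apoDBs by 5 clustered genes, where 0.233% passed. With apoDBs 31 genes of the whole table passed these limits, so clustered histone genes made up 5 of the 31. Some of these clustered genes may have been listed through the treated samples alone, among them Hist1h2bb, Hist1h2bf and Hist1h2bm. Among the 13 clustered genes listed in all 4 tables, 1 passed with NEPs and 4 with apoDBs.

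Variant genes had smaller medians. Of the 11 listed, 7 rose with apoDBs (63.6%, beside 22.9% of all genes) and none fell (beside 22.6%). Their median was 0.60 on the log2 scale. For NEPs the counts were 4 higher (36.4%, beside 24.3%) and 2 lower (18.2%, beside 31.1%), and the median was 0.04. On 11 genes the shares for NEPs are near those of all genes. H3f3b, an H3.3 gene, rose by 0.89 with NEPs (adjusted p = 7.14e-06) and by 0.99 with apoDBs (adjusted p = 8.13e-05), and the pseudogene H3f3c by 1.66 (adjusted p = 0.0114) and 1.89 (adjusted p = 0.0196). H1f0 rose by 0.32 (adjusted p = 0.00737) and 0.60 (adjusted p = 0.000702), and H2afz by 0.51 (adjusted p = 0.000194) and 0.26 (adjusted p = 0.0291).

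Other variants passed with apoDBs and not with NEPs against vehicle. H2afv was at -0.06 with NEPs (adjusted p = 0.559) and 0.74 with apoDBs (adjusted p = 0.000466), H2afx at -0.15 (adjusted p = 0.446) and 0.71 (adjusted p = 0.0211), and H3f3a at 0.04 (adjusted p = 0.609) and 0.55 (adjusted p = 0.000509). H2afj was lower with NEPs at -0.51 (adjusted p = 0.0264) and at 0.17 with apoDBs (adjusted p = 0.537), and H2afy was lower with NEPs at -0.23 (adjusted p = 0.00625) and at 0.07 with apoDBs (adjusted p = 0.308). H3f3aos was at -0.51 (adjusted p = 0.0563) and -0.19 (adjusted p = 0.419).

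S phase genes also rose, with smaller medians than the clustered genes. With apoDBs 25 of 28 rose (89.3%, beside 22.9% of all genes) and none fell, at a median log2 fold change of 0.45, and with NEPs 21 rose (75%, beside 24.3%) and 1 fell, at 0.33. Among the leading genes with NEPs were Pola1 at 0.95 (adjusted p = 1.08e-05), Ccne2 at 0.85 (adjusted p = 5.01e-05) and Ccne1 at 0.58 (adjusted p = 0.000184). The leading genes with apoDBs were Gins2 at 0.66 (adjusted p = 0.00043), Rrm2 at 0.65 (adjusted p = 0.000145), Pcna at 0.64 (adjusted p = 0.000122) and Cdc45 at 0.59 (adjusted p = 0.000296).

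Of the 16 histone mRNA processing genes, 6 rose and 3 fell with NEPs (37.5% and 18.8%, beside 24.3% and 31.1% of all genes), and 5 rose and none fell with apoDBs (31.2% higher, beside 22.9%). On 16 genes these shares are near those of all genes. Slbp rose by 0.57 with NEPs (adjusted p = 0.000104) and by 0.62 with apoDBs (adjusted p = 0.000416). With NEPs Casp8ap2 was at 0.44 (adjusted p = 0.00142), Cpsf2 at 0.42 (adjusted p = 0.000431) and Upf1, needed for decay of histone mRNA after S phase, at -0.48 (adjusted p = 0.00156). With apoDBs Snrpd3 was at 0.53 (adjusted p = 0.000367), Lsm10, part of the U7 particle that cuts histone pre-mRNA, at 0.51 (adjusted p = 0.00671), and Eri1, an exonuclease that trims the stem-loop end, at 0.39 (adjusted p = 0.00487). Npat was at -0.0060 (adjusted p = 0.95) and -0.04 (adjusted p = 0.707).

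Of the 28 chaperones and deposition factors, 10 rose and 7 fell with NEPs (35.7% and 25%, beside 24.3% and 31.1% of all genes), and 12 rose and 6 fell with apoDBs (42.9% and 21.4%, beside 22.9% and 22.6%). Hat1, which acetylates new H4, rose by 0.97 (adjusted p = 8.47e-06) and 0.75 (adjusted p = 0.000558). Srcap, which loads H2A.Z, fell in both, at -1.01 (adjusted p = 1.87e-05) and -0.52 (adjusted p = 0.00384), and so did Ubn2, at -0.68 (adjusted p = 0.000193) and -0.65 (adjusted p = 0.00156), and Hira, at -0.19 (adjusted p = 0.0304) and -0.17 (adjusted p = 0.0426). Daxx rose with NEPs at 1.30 (adjusted p = 3.17e-07) and was at -0.0010 with apoDBs (adjusted p = 0.993). Asf1b was at 0.03 with NEPs (adjusted p = 0.693) and 0.63 with apoDBs (adjusted p = 0.000249), Nasp at 0.46 (adjusted p = 0.00103) and 0.24 (adjusted p = 0.0558), and Cenpa at 0.09 (adjusted p = 0.275) and -0.12 (adjusted p = 0.141). Cenpt, a histone fold protein of the centromere, fell by 0.46 with NEPs (adjusted p = 0.000355) and by 0.30 with apoDBs (adjusted p = 0.0089), and Cenpw rose with NEPs at 0.26 (adjusted p = 0.0299).

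The direct comparison of NEPs with apoDBs sets recipient cultures given products of Padi4 WT donors beside those given debris of Padi4 KO donors. Clustered genes went in both directions, as 12 of 23 were lower with NEPs, 6 were higher and 5 did not pass, where 31.4% of all genes were called lower and 23.4% higher. The median was -0.87, beside -0.06 for all 13419 genes. None of the 23 clustered and 11 variant genes passed the stricter limits, which 2.21% of all genes did.

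All 6 genes called higher with NEPs than with apoDBs encode H2B. They were Hist1h2bf at 1.81 (adjusted p = 0.000116), Hist1h2bm at 1.46 (adjusted p = 5.21e-06), Hist1h2bb at 1.09 (adjusted p = 0.000174), Hist2h2bb at 0.76 (adjusted p = 0.0355), Hist2h2be at 0.52 (adjusted p = 0.00147) and Hist1h2bc at 0.23 (adjusted p = 0.0212). The H2B genes Hist1h2br, at -2.13 (adjusted p = 0.000945), and Hist1h2bg, at -0.93 (adjusted p = 0.00849), were lower, and Hist1h2be and Hist1h2bq did not pass. Of the 13 listed genes of other families, 10 were lower and none higher. This split by family was noticed in the values and carries no test. Among the higher genes, Hist1h2bf, Hist1h2bm and Hist1h2bb may have been listed through the treated samples alone. Among the lower genes of other families, Hist2h2aa2, Hist1h4n, Hist1h4j, Hist1h2ap and Hist1h1e may have been listed through the apoDB samples alone.

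The lower genes were led by Hist2h2aa2 at -5.44 (adjusted p = 0.000864), Hist1h4n at -4.10 (adjusted p = 0.000338), Hist1h4j at -3.23 (adjusted p = 0.00206) and Hist1h2ap at -2.45 (adjusted p = 0.0137), 5.47-fold to 43.5-fold differences. None of these 4, nor Hist1h1e, was listed for NEPs against vehicle, so they may have entered this comparison through the apoDB samples alone, where they are high. Together these are 5 of the 12 lower genes. Among the 13 clustered genes listed in all 4 tables, 7 were lower and 3 higher, at a median of -0.93. When apoDBs were set against vehicle, Hist1h4j was at 1.41 (adjusted p = 0.0129) and Hist1h2ap at 1.32 (adjusted p = 0.0189). The linker genes Hist1h1d, at -1.99 (adjusted p = 3.58e-06), Hist1h1c, at -1.43 (adjusted p = 7.17e-06), and Hist1h1e, at -0.87 (adjusted p = 0.0241), were lower, as were Hist2h2aa1 at -1.64 (adjusted p = 0.00196), Hist1h4i at -1.31 (adjusted p = 6.8e-06) and Hist2h3c1 at -1.27 (adjusted p = 1.53e-05). Hist3h2a was at 0.10 (adjusted p = 0.366), Hist1h3d at -0.58 (adjusted p = 0.175) and Hist1h2ac at -0.71 (adjusted p = 0.0506).

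For Hist1h2bf the direct log2 fold change of 1.81 was 0.84 above the difference of its values in the comparisons with vehicle, which is 0.97. The same gap was 0.72 for Hist1h2bb and 0.56 for Hist1h2bm, while its median size was 0.0057 over 12929 genes and 0.09 over 17 clustered genes. The 3 H2B genes with the largest folds had the largest such gaps of the 17, with the same sign by either route.

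Of the 11 variant genes, 6 were lower with NEPs than with apoDBs (54.5%, beside 31.4% of all genes) and 1 higher (9.09%, beside 23.4%). H2afx was at -0.86 (adjusted p = 0.000479), H2afv at -0.81 (adjusted p = 7.65e-06), H2afj at -0.69 (adjusted p = 0.00454), H3f3a at -0.51 (adjusted p = 2.27e-05), H2afy at -0.30 (adjusted p = 0.000349) and H1f0 at -0.27 (adjusted p = 0.00205). H2afz was the 1 variant gene higher with NEPs, at 0.25 (adjusted p = 0.00413). H3f3b was at -0.08 (adjusted p = 0.235), H3f3c at -0.04 (adjusted p = 0.921) and H3f3aos at -0.33 (adjusted p = 0.173).

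Around them, 11 of the 28 S phase genes were lower (39.3%, beside 31.4% of all genes) and 3 higher (10.7%, beside 23.4%) with NEPs than with apoDBs. Gins2 was at -0.59 (adjusted p = 8.41e-05), Mcm2 at -0.46 (adjusted p = 8.89e-05), Pola1 at 0.43 (adjusted p = 0.00022) and Mcm3 at -0.34 (adjusted p = 0.000183). Of the chaperones 4 were higher (14.3%) and 7 lower (25%), with Daxx at 1.32 (adjusted p = 1.17e-07), Asf1b at -0.60 (adjusted p = 1.35e-05), Srcap at -0.48 (adjusted p = 0.000115) and Hjurp, the loader of Cenpa, at -0.37 (adjusted p = 6.11e-05). Nasp was at 0.21 (adjusted p = 0.011), Hira at -0.01 (adjusted p = 0.867), Cenpa at 0.20 (adjusted p = 0.0101) and Cenpt at -0.16 (adjusted p = 0.0197). Of the histone mRNA processing genes 3 were higher and 3 lower (18.8% each), with Eri1 at -0.36 (adjusted p = 0.000566), Casp8ap2 at 0.29 (adjusted p = 0.0119), Cpsf2 at 0.29 (adjusted p = 0.00109), Ncbp1 at 0.24 (adjusted p = 0.00579), Slbp at -0.06 (adjusted p = 0.339) and Npat at 0.03 (adjusted p = 0.749).

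The spheroid table shares no samples with the 2D tables, so their directions can be set side by side. Of 16 clustered genes listed both in spheroids and with apoDBs against vehicle, 15 had a negative value in WT spheroids and a positive value with apoDBs (93.8%), against 24.9% of all 12903 genes listed in both. For 10 of the 16 both values were called, against 5.22% of all genes. With NEPs against vehicle 12 of 13 clustered genes had these signs (92.3%), against 19.2% of all 13062 genes, and 9 were called in both, against 3.49%. None of the 28 S phase genes had this combination of signs with either. Among the 11 variant genes it was seen in 4 with apoDBs and 3 with NEPs, with no gene called in both. Since the members of the class share sequence and regulation, these counts are descriptions.

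**Figure D4:**
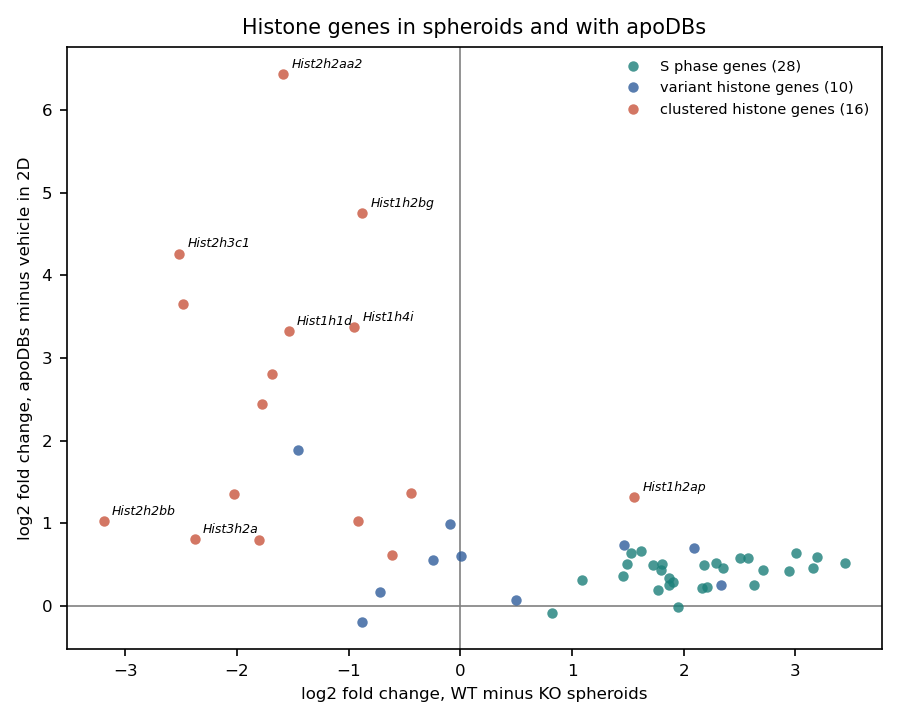
Log2 fold change in WT against KO spheroids (x) and with apoDBs against vehicle in 2D (y) for 16 clustered histone genes, 10 variant histone genes (without the pseudogene H3f3a-ps2) and 28 S phase genes listed in both tables. Of the 16 clustered genes 15 lie in the upper left, and Hist1h2ap lies to the right at 1.56.

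Genes were also grouped by their annotated 3′ end. Of the 7 listed genes whose transcripts end within 100 bases of the stem-loop, 4 were listed with NEPs and had a median log2 fold change of 6.87. The 8 genes that run further had 1.32, and the 5 with no stem-loop found in their annotated transcripts had 1.66. Of the 4 short genes, 3 are Hist1h2bb, Hist1h2bf and Hist1h2bm, which the spheroid table did not list and whose large ratios rest on an unknown vehicle level, so they may have been listed through the treated samples alone, and the fourth, Hist2h2aa1, was at 0.72. With apoDBs the medians were 6.20 over 7 genes, 2.03 over 11 genes that run further and 1.03 over the 5 genes with none found. Members of the short group spread widely, from 1.32 for Hist1h2ap to 6.64 for Hist1h2bf with apoDBs. In spheroids 3 short genes had a median of -1.58, 12 genes that run further -2.20 and the 5 with no element found -1.80. The order of the groups thus differed between comparisons. This grouping was chosen after the values were seen and carries no test.

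**Figure D5:**
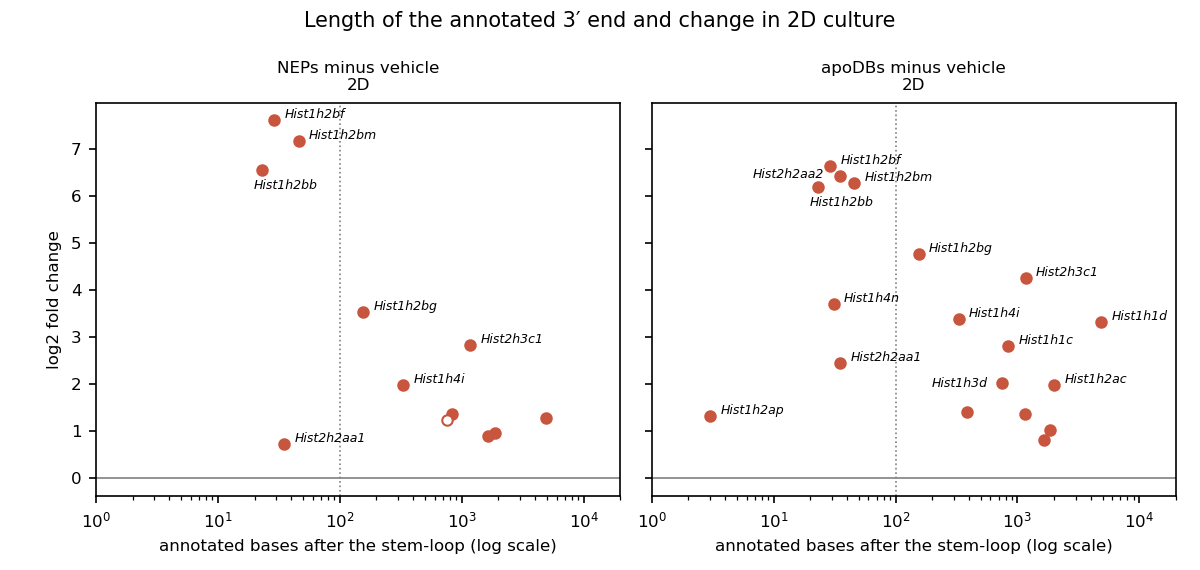
Log2 fold change with NEPs (left) and apoDBs (right) against vehicle by the number of annotated bases after the stem-loop (log scale), with filled points at an adjusted p below 0.05 and a dotted line at 100 bases. Hist1h2bf, Hist1h2bm and Hist1h2bb lie left of the line at 6.20 or above in both panels, and Hist2h2aa1 lies left of it at 0.72 and 2.44.

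The 3 clustered genes also known as polyadenylated mRNAs are Hist1h1c, Hist1h2bc and Hist2h2be. All were higher with NEPs and with apoDBs than with vehicle. In WT spheroids they had log2 fold changes of -1.69, -1.80 and -0.44, the last not passing. The listed copies whose annotated mRNA ends within 100 bases of the stem-loop also rose in each comparison with vehicle. Some of those copies may have been listed through the treated samples alone. Annotated ends do not show which RNA was captured, and the part of the poly(A) tail in these values was not tested.

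Near-identical copies limit what single clustered genes can show. The coding sequence of a listed clustered gene was a median of 98.4% identical to that of its closest annotated relative (range 75.1% to 100%), and 14 of 27 were at 98% or more. Matches were divided by the longer sequence, so a difference in length lowers the figure. The 75.1% is that of Hist2h3c1, with 543 coding bases, against Hist2h3c2, with 408, and reflects their lengths. Hist2h3c1 is thus a near copy that was not counted as one and was kept where near-identical copies were left out. By the same measure, coding sequences of the protein-coding variants were at most 80.7% identical to another protein-coding variant of their family. Pseudogenes such as H3f3c and relatives in the clusters were left out of that figure. Reads that H3f3c might share with H3f3a or H3f3b were therefore not assessed. The clustered genes called in all 4 comparisons were Hist1h1c, Hist1h1d, Hist1h2bc, Hist1h4i, Hist2h2aa1, Hist2h2bb and Hist2h3c1. The share of all genes called in all 4 was not computed, so no weight is put on their number. Each of these genes was lower in WT spheroids and higher than vehicle with either product. In NEPs against apoDBs they split, with Hist1h2bc at 0.23 and Hist2h2bb at 0.76 higher and the others lower.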

How the data were processed

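RNA was sequenced on an Illumina NextSeq from 15 samples in 5 groups of 3, named by the treatment and genotype in their labels. The values analysed are those of 4 limma tables that the authors deposited, made with the CCBR Pipeliner. Fold changes in the deposited tables are a score with a sign, linear ratios whose values under 1 were replaced by the negative reciprocal, and they were converted to log2. Each p-value in the deposited tables is limma's own, unadjusted, so Benjamini-Hochberg adjustment was applied here within each comparison, across its whole gene set. A gene was called at an adjusted p below 0.05. Stricter limits, an adjusted p below 0.0001 with a change beyond 2 on the log2 scale, follow the study's methods. Levels of single samples were not used here. No model could be fitted again, no error per gene is given and depth is unknown.

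The aligner, counting tool, strand setting, filter on low values, offset and normalization are not given in the sources used here. The submitters' processing notes name limma and mm9. GENCODE M21 (GRCm38) holds 99.9% of the identifiers in each comparison, so positions are those of GRCm38 by Ensembl identifier, and tables were joined by identifier without version. Coding sequences, transcripts and stem-loops come from GENCODE M21 and promoters from RefSeq (GRCm38.p6), matched by symbol. Identity is the share of matching bases over the longer coding sequence of a pair, against other annotated protein-coding genes of the same histone family and class.

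The members and gene lists were chosen with earlier results of these data known. Named are every variant gene outside pseudogene symbols, the 10 clustered genes with the largest change among those called in each comparison, those called in 3 or more, the 4 largest called genes of each pathway list (all, where fewer than 5 were called), and Slbp, Npat, Nasp, Asf1b, Hira, Daxx, Cenpa and Padi4. Other clustered genes and the markers are named or counted for completeness. The individual result of 1 pathway gene is not reported here. Alternatives are in the closing section. Software was Python 3.11.15 with numpy 2.4.6, pandas 2.3.3, scipy 1.17.1 and matplotlib 3.10.9, and the code was tested on simulated data.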

Additional observations from a re-analysis of the deposited data

How the results depend on the processing

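No paired analysis was possible because the tables hold no values per sample, and for the same reason no replicate was left out and no sample was tested as standing apart. The depth behind each fold change is unknown.

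For each comparison the number of clustered genes called was recomputed. In WT against KO spheroids 13 were called, and 7 at an adjusted p below 0.01, 5 with Benjamini-Yekutieli adjustment and 1 at an adjusted p below 0.0001 with an absolute log2 fold change above 2. With NEPs against vehicle 16 were called, 4 at the last of these limits and 9 without genes whose coding sequence is at least 98% identical to another. With apoDBs against vehicle 23 were called, 5 at the strictest limits, 13 over genes listed in all 4 tables and 10 without near-identical copies, which were all genes tested in each of these last settings. With NEPs against apoDBs 18 were called, 0 at the strictest limits, 10 over genes in all 4 tables and 9 without near-identical copies. The last 2 alternatives test fewer genes.

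Of the variant genes 5 were called in spheroids, and 3 at an adjusted p below 0.01, 3 with a log2 limit of 1, 3 with Benjamini-Yekutieli adjustment and 1 at the strictest limits. With NEPs against vehicle 6 were called, 1 with the log2 limit of 1, 0 at the strictest limits and 2 with Benjamini-Yekutieli adjustment. With apoDBs against vehicle 7 were called, 4 at 0.01, 1 with the log2 limit of 1, 0 at the strictest limits and 4 with Benjamini-Yekutieli adjustment. With NEPs against apoDBs 7 were called, and 0 with either log2 limit. The cause of these changes is the stricter limit itself.

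Medians of clustered genes kept their sign under every alternative. The median of variant genes with NEPs against vehicle, 0.04, was -0.010 without the pseudogenes and the antisense gene, so no direction is read from it. For single members only subtracting the median of all genes alters a value, by a small shift, and no called value changed sign with it. The other alternatives for single members keep the value and so could not change its sign. Leaving out near-identical coding sequences and noncoding genes was chosen after seeing the data, and took the place of leaving out members with identical RefSeq proteins, which was not run because no protein table was used here.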
